A study of Mus musculus with 2 samples.

Results

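Tropomyosins, tropomodulins and leiomodins are proteins of the actin thin filament, and 10 of their genes were followed here among the 30385 entries of the deposited table. They were the tropomyosins Tpm1, Tpm2, Tpm3 and Tpm4, the tropomodulins Tmod1, Tmod3 and Tmod4, and the leiomodins Lmod1, Lmod2 and Lmod3. Members were taken by gene symbol, with earlier results of these data known, and all 10 symbols were found once each. The heart RNA came from wild-type mice (WT) and from MHC403/+ mice, heterozygous carriers of a missense change in the myosin heavy chain that is known from human hypertrophic cardiomyopathy. Both groups were 129/SvEv mice of 8 to 16 weeks, and both had received CsA (cyclosporine A, a calcineurin inhibitor) under the skin at 15 mg/kg, with 2 injections a day over 2 weeks. Replicate animals had been pooled, which left 1 library per genotype, so no difference below has a replicate check. The effect of CsA alone was not measured, and a drug response that depends on genotype cannot be told apart from genotype.

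Tropomyosin is a coiled coil that lies along the actin filament and, in striated muscle, moves with the troponin complex to open or close the myosin binding sites. Tropomodulins cap the slow-growing pointed end of the filament, and leiomodins, their relatives, start new filaments and lengthen them from that end. Tpm1 encodes the main tropomyosin of the mouse ventricle, Tmod1 the main tropomodulin of heart and Lmod2 the main cardiac leiomodin. Tpm3 and Tpm4 supply many of the tropomyosins of the non-muscle cytoskeleton, Tpm2 is the beta chain of skeletal and smooth muscle, and Lmod1 is the smooth muscle leiomodin.

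The assay, 5′RNA-seq, sequences polyA RNA without fragmentation so that reads gather near transcription starts, and the table counts them in windows around and downstream of each annotated start. The DNA just before those starts is therefore shown for the most abundant member, for the 3 members whose reads were 2-fold or more above WT in the MHC403 library, and for Tmod4, the one matched member among those lower by 2-fold or more with 50 reads or more in a library. RefSeq promoters on GRCm38.p6 were found by symbol for 8 of the 10 members, 9 promoters in all, and none was matched for Tmod3 or Lmod3. The table itself is on mm9, so its starts were not set against these positions. Which of the annotated starts of Tpm1, Tpm3 or Tmod1 gave the reads is not known. Tpm1, with 3 annotated starts, and Tmod1, with 2, had 1 matched promoter each. Each line gives the 250 bases before the start, 5′ to 3′ on the gene's strand. Capitals mark a GC box, GGGCGG or its complement CCGCCC, or an MCAT element, CATTCC or its complement GGAATG. The stretches are chr9:67049214-67049463 on the minus strand for Tpm1, chr4:43523555-43523804 on the minus strand for Tpm2, and chr3:90072401-90072650 and chr3:90079271-90079520 on the plus strand for Tpm3. Those of Tpm4 and Tmod4 are chr8:72135038-72135287 and chr3:95124264-95124513, both on the plus strand.
Tpm1: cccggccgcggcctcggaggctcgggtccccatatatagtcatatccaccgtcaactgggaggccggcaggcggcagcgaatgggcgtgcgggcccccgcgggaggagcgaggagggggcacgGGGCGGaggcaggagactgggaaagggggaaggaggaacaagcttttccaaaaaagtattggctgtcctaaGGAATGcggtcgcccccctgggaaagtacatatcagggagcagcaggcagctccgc
Tpm2: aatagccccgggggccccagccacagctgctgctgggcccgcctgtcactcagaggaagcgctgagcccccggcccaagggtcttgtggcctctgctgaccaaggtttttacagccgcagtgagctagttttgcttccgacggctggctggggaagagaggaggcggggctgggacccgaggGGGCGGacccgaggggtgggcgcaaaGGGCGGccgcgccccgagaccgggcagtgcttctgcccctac
Tpm3 upstream start: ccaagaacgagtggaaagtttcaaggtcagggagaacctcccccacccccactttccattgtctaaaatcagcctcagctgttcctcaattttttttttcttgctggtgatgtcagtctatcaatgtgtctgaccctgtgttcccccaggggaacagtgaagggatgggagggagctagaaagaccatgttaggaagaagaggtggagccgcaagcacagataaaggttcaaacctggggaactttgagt
Tpm3 downstream start: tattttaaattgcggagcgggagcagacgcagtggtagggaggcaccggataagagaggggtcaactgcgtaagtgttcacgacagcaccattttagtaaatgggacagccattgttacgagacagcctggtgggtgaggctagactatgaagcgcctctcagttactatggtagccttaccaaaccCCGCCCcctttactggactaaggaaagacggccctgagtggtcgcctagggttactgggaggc
Tpm4: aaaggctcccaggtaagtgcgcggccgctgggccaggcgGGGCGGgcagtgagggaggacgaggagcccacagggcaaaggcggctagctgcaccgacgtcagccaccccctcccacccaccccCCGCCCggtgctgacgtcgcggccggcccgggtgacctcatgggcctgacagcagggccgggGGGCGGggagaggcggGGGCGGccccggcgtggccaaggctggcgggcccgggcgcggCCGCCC
Tmod4: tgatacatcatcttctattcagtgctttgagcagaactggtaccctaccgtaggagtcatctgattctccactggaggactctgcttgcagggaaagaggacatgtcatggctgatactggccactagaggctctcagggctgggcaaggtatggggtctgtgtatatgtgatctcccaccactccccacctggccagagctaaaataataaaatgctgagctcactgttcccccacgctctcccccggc

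The stretch before Tpm4 had 78.8% G and C, a share reached by 1.72% of the 32851 promoters in the table, and held 5 GC boxes. The Tpm2 stretch had 69.6% G and C with 2 GC boxes, and that of Tpm1 65.2% with 1 GC box and 1 MCAT element, the latter 56 to 51 bases before the start. Before the upstream Tpm3 start the share was 48.8% with 2 CpG dinucleotides and no GC box, and before the downstream start it was 53.6% with 11 CpG and 1 GC box. The Tmod4 stretch, at 52.4% G and C with 3 CpG, lay at the median of all promoters (52.4%) and held neither motif. Searched on both strands, GC boxes occurred in 6 of the 9 member promoters and in 32.7% of all promoters, and MCAT elements in 3 of 9 (Tpm1, Tmod1 and Lmod1) and in 12.6%. The TATA box TATAAA (12.4% of all promoters), the CArG box (1.47%) and the MEF2 box (2.92%) had no match in the 9 stretches, which says only that these letters are not in this window. No base of a GC box overlapped an MCAT element.

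Library totals were 5468677 reads (MHC403) and 5481123 reads (WT). Entries that reached 50 reads in the higher library, 9507 in all, are called measured, and 9 of the 10 members were among them, Lmod1 being the exception. Each ratio divides the MHC403 value by the WT value in RPM (reads per 1000000 reads of the library), and brackets give exact (Clopper-Pearson) 95% intervals that cover counting error only, since reads had no molecular identifiers. Scaling bears on the direction of small differences here. The median log2 ratio of all measured entries was 0.57, a 1.48-fold excess in the MHC403 library, and median-of-ratios scaling lowered every log2 ratio by 0.55. Genes that define heart muscle were abundant in both libraries, Myh6 with 55171 reads in MHC403 and 132965 in WT and Tnnt2 with 61930 and 58949. The atrial genes Myl7 and Myl4 had at most 31 reads in either library and Sln at most 3, while the fourth atrial marker, the natriuretic peptide Nppa, the one measured gene of that list, had 92851 reads in MHC403 and 3017 in WT.

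The families moved unevenly between the genotypes. Tpm3, Tpm4 and Tpm2 were 3.27-fold, 2.52-fold and 2.12-fold higher in the MHC403 library, while Tpm1, which supplied nearly all tropomyosin reads, was 1.17-fold higher. Tmod4 and Lmod3, both known mainly from skeletal muscle, were 2.18-fold and 2.09-fold lower. Tmod1, Tmod3 and Lmod2 lay within 2-fold. Thus 3 of the 9 measured members were higher by 2-fold or more, where 26.1% of all measured entries were, and 2 of 9 were lower by 2-fold or more, where 2.43% of all measured entries were. The share of higher members was near the background. Under median-of-ratios scaling 1 member, Tpm3, was higher by this rule beside 10.9% of entries, and 2 members, Tmod4 and Lmod3, were lower beside 7.59%. TMM scaling gave the same counts of members beside 10.9% and 7.55% of entries. Totals without mitochondrial entries gave 2 higher members, Tpm3 and Tpm4, beside 16.1% and 2 lower ones beside 4.21%. The median log2 ratio of the 9 members was 0.39, below the 0.57 of all measured entries.

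**Figure D1:**
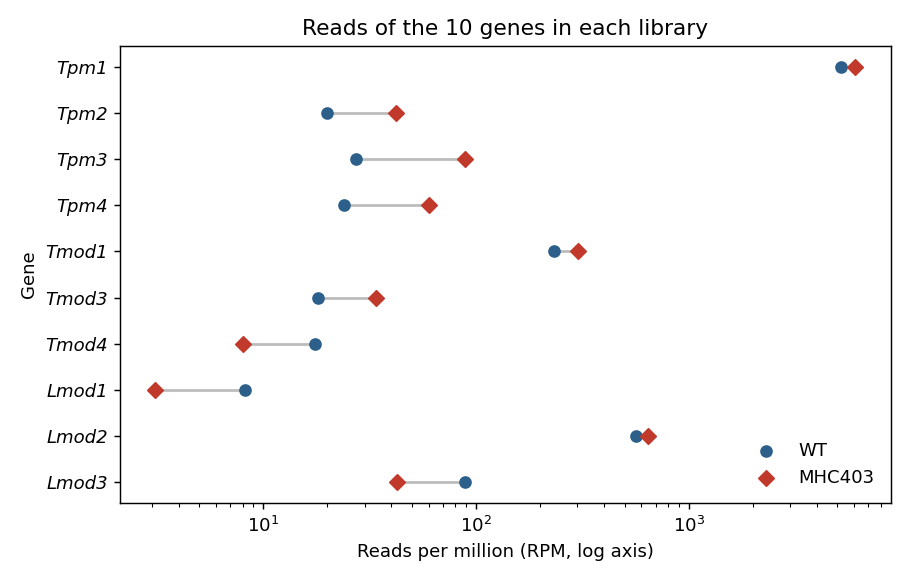
RPM of the 10 genes on a log axis, with 1 pooled library per genotype (circles WT, diamonds MHC403) and a grey line joining the 2 values of a gene. Tpm1 stands at 5224 RPM in WT and 6090.1 in MHC403, while Tmod4, Lmod1 and Lmod3 are the 3 genes with the lower value in MHC403.

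Tpm1 (chromosome 9, 66870400 to 66897020, minus strand, 3 annotated starts) had 33305 reads in MHC403 and 28631 in WT, or 6090.1 and 5224 RPM. It ranked 20 among all entries by mean RPM. The ratio of 1.17 (1.15 to 1.18) lay above 1 with library totals, but its log2 value of 0.22 was -0.33 under median-of-ratios scaling, -0.32 under TMM scaling and -0.07 when mitochondrial entries were left out of the totals. Its direction is thus set by the scaling, and 71.3% of measured entries had a ratio at least as high.

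Tpm2 (chromosome 4, 43527583 to 43536260, minus strand) had 231 reads in MHC403 and 109 in WT, or 42.2 and 19.9 RPM. The MHC403 value was 2.12-fold higher (1.68 to 2.69), an interval that includes 2-fold, and 22.6% of measured entries had a ratio at least as high.

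Tpm3 (chromosome 3, 89876616 to 89904526, plus strand, 2 annotated starts) had 486 reads in MHC403 and 149 in WT, or 88.9 and 27.2 RPM. Its ratio was the highest of the 10 members, 3.27 (2.72 to 3.95), and 8.63% of measured entries reached it. It passed 2-fold under median-of-ratios scaling too, at 2.24. Tpm3 shared 20.4% of the 36-base words in the first 200 bases of its transcripts with the gene copy Tpm3-rs7, so its reads are uncertain where the authors' counting could split or share them.

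Tpm4 (chromosome 8, 74659191 to 74677028, plus strand) had 330 reads in MHC403 and 131 in WT, or 60.3 and 23.9 RPM. The ratio was 2.52 (2.06 to 3.12), so that the intervals of Tpm3 and Tpm4 lay wholly past 2-fold with library totals. With median-of-ratios scaling Tpm4 was 1.73-fold and Tpm2 1.45-fold higher. The direction of these 3 genes was the same under the 3 other scalings, and none of their windows overlapped another entry.

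**Figure D2:**
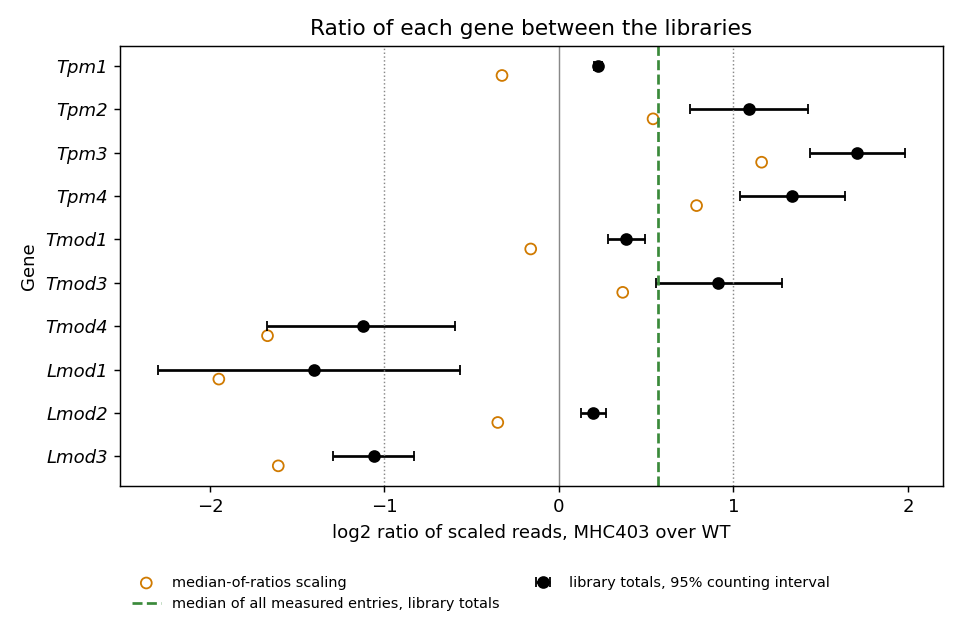
Log2 ratio of MHC403 over WT for each gene with library totals (black points, bars the exact 95% counting interval) and with median-of-ratios scaling (open circles), dotted lines marking 2-fold and the dashed line the median of all measured entries, 0.57. Tpm2, Tpm3 and Tpm4 stay above 0 and Tmod4, Lmod1 and Lmod3 below 0 with both scalings, while Tpm1, Tmod1 and Lmod2 change sign.

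Shares within the family do not depend on the scaling. Tpm1 made up 97.0% (96.8 to 97.1) of the 34352 tropomyosin reads in MHC403 and 98.7% (98.5 to 98.8) of the 29020 in WT. Tpm2, Tpm3 and Tpm4 together took 3.05% (2.87 to 3.24) in MHC403 against 1.34% (1.21 to 1.48) in WT. The share of Tpm3 was 1.41% (1.29 to 1.55) against 0.513% (0.434 to 0.603), that of Tpm4 0.961% (0.860 to 1.07) against 0.451% (0.378 to 0.535), and that of Tpm2 0.672% (0.589 to 0.765) against 0.376% (0.309 to 0.453). Relative to Tpm1, reads were 2.80-fold (2.33 to 3.39) higher in MHC403 for Tpm3, 2.17-fold (1.76 to 2.67) for Tpm4 and 1.82-fold (1.44 to 2.31) for Tpm2, by exact conditional odds ratios of the reads. The minor tropomyosins were thus a larger part of the family in the MHC403 library, in intervals that do not overlap between the genotypes. The reference gene bears on these values. The log2 ratio of Tpm1 was 0.22 where the median of all measured entries was 0.57, a difference of -0.35. A measured entry at that median was therefore also higher relative to Tpm1. Among the first 200 bases, Tpm1 and Tpm2 shared 2 of their 36-base words (0.232% and 0.460%), and Tpm4 shared none with another gene.

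Tmod1 (chromosome 4, 46052094 to 46128904, plus strand, 2 annotated starts) had 1657 reads in MHC403 and 1271 in WT, or 303 and 232 RPM. The ratio was 1.31 (1.21 to 1.41) with library totals, and the log2 value of 0.39 was -0.16 under both median-of-ratios and TMM scaling and 0.09 without mitochondrial entries in the totals. Tmod3 (chromosome 9, 75345591 to 75407464, minus strand), the widely expressed tropomodulin, had 186 reads in MHC403 and 99 in WT, 34.0 and 18.1 RPM, a ratio of 1.88 (1.47 to 2.43). Relative to Tmod1 Tmod3 was 1.44-fold higher (1.11 to 1.88), a value free of scaling. A measured entry at the median log2 ratio of 0.57 was also higher relative to Tmod1.

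Tmod4 (chromosome 3, 94928436 to 94933130, plus strand), the tropomodulin of fast skeletal muscle, had 44 reads in MHC403 and 96 in WT, or 8.05 and 17.5 RPM. It was 2.18-fold lower (1.51 to 3.19), and 1.77% of measured entries had a ratio as low or lower. Against Tmod1 within the same libraries it was 2.84-fold lower (1.95 to 4.19). Relative to Tmod1, then, Tmod3 was higher in MHC403 and Tmod4 lower.

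Lmod2 (chromosome 6, 24547771 to 24555414, plus strand) had 3530 reads in MHC403 and 3086 in WT, or 645 and 563 RPM. Its ratio was 1.15 (1.09 to 1.20), with a log2 value of 0.20 that was -0.35 under both median-of-ratios and TMM scaling and -0.10 without mitochondrial entries. Like Tpm1 and Tmod1, the abundant cardiac member of its family, it stayed within 2-fold under each scaling.

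Lmod3 (chromosome 6, 97188522 to 97202774, minus strand), a leiomodin of striated muscle whose loss is known to cause nemaline myopathy, had 232 reads in MHC403 and 485 in WT, or 42.4 and 88.5 RPM. It was 2.09-fold lower (1.78 to 2.45), and 2.07% of measured entries were as low or lower. Against Lmod2 it was 2.39-fold lower (2.03 to 2.83). Lmod1 (chromosome 1, 137221390 to 137264642, plus strand) had 17 reads in MHC403 and 45 in WT, 3.11 and 8.21 RPM, and so missed the minimum of 50. Its ratio was 2.64-fold lower (1.48 to 4.92), and 3.03-fold lower (1.69 to 5.65) against Lmod2. Lower values in MHC403 for Tmod4, Lmod3 and Lmod1 were found with all 4 scalings tried for the measured pair and with both scalings computed for Lmod1, and with 2-fold inside the interval of each gene.

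**Figure D3:**
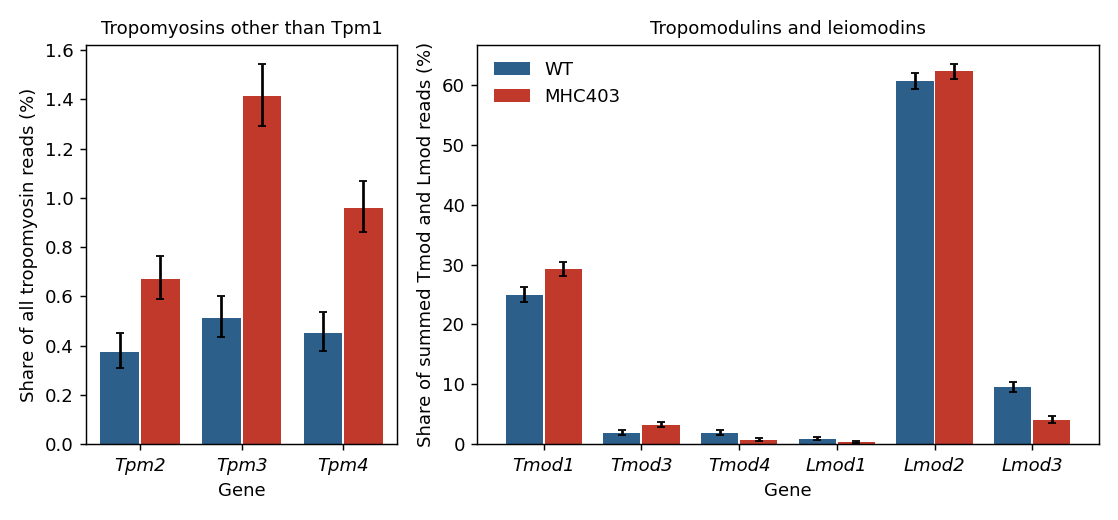
Share of family reads per gene in WT (blue) and MHC403 (red), with exact 95% binomial intervals, for the tropomyosins other than Tpm1 (left, percent of all tropomyosin reads) and for the tropomodulins and leiomodins (right, percent of their summed reads). Tpm3 goes from 0.513% in WT to 1.41% in MHC403 and Lmod3 from 9.54% to 4.09%.

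Of the summed tropomodulin and leiomodin reads, 5666 in MHC403 and 5082 in WT, Lmod2 took 62.3% (61.0 to 63.6) and 60.7% (59.4 to 62.1). These intervals overlap. Tmod1 took 29.2% (28.1 to 30.4) against 25.0% (23.8 to 26.2), and Lmod3 4.09% (3.59 to 4.64) against 9.54% (8.75 to 10.4). Tmod4 made up 0.777% (0.565 to 1.04) against 1.89% (1.53 to 2.30), Tmod3 3.28% (2.83 to 3.78) against 1.95% (1.59 to 2.37), and Lmod1 0.300% (0.175 to 0.480) against 0.885% (0.647 to 1.18). The leiomodins together made up a smaller share in MHC403, at 66.7% (65.5 to 67.9) against 71.2% (69.9 to 72.4).

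Levels between genes were compared as RPM per 100 bases of counted window, since genes with several starts have longer windows. Windows held 1204 bases for Tpm1, 800 for Tpm3 and Tmod1 and 400 for the others, so genes with unused starts are understated on this scale. In WT the level was 434 for Tpm1, 141 for Lmod2, 29.0 for Tmod1 and 22.1 for Lmod3, with counting intervals that did not overlap. Below them came Tpm4 at 5.98, Tpm2 at 4.97, Tmod3 at 4.52, Tmod4 at 4.38 and Tpm3 at 3.40, where each interval overlapped that of its neighbour, and Lmod1 at 2.05. In MHC403 the first 3 places were the same, with Tpm1 at 506, Lmod2 at 161 and Tmod1 at 37.9. Next came Tpm4 at 15.1, and then Tpm3 at 11.1, Lmod3 at 10.6, Tpm2 at 10.6 and Tmod3 at 8.50, whose neighbouring intervals overlapped. Tmod4 at 2.01 and Lmod1 at 0.777 closed the order. Lmod3 thus stood apart from the minor tropomyosins in WT and among them in MHC403.

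**Figure D4:**
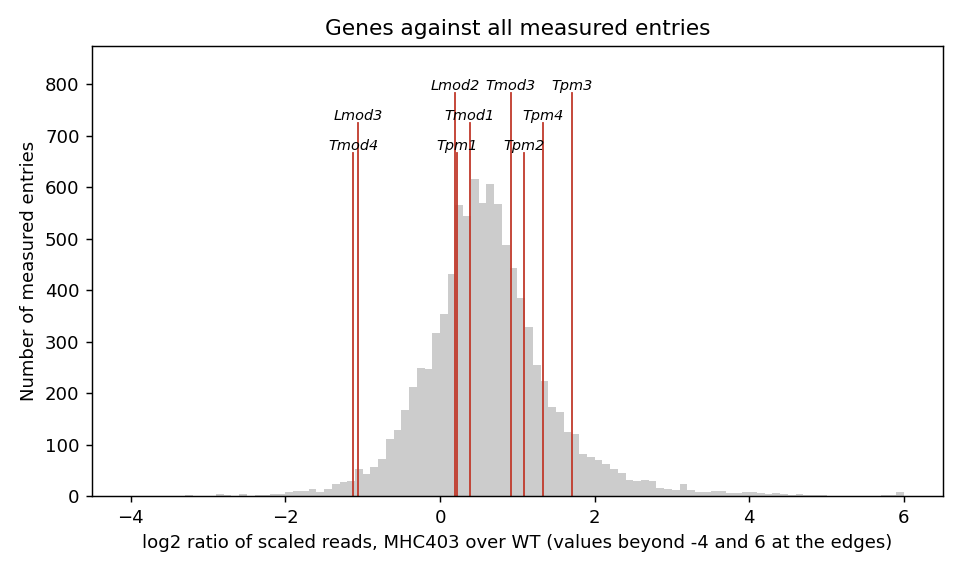
Histogram of log2 ratios of MHC403 over WT for the 9507 measured entries (grey, library totals), with red lines at the 9 measured members. Tmod4 and Lmod3 lie in the sparse left tail, where 2.43% of entries are at least 2-fold lower, while Tpm2, Tpm3 and Tpm4 lie on the right flank, where 26.1% are at least 2-fold higher.

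The authors' deposited table also gives a whole-number score for changes in start-site use, by a formula not given in the sources used here. Of the 10483 entries with at least 20 reads in both libraries 34.7% had a score above 0, and 7 of the 10 members did. Lmod1 was outside that set, and no entry outside it had a score above 0. In the authors' deposited table Tpm1, with 3 annotated starts, had a score of 36, which 2.57% of those entries reached, and Tmod4, with 1 annotated start, a score of 26, reached by 5.48%. The scores were 14 for Tmod1, 12 for Tpm2, 9 for Lmod3, 7 for Lmod2 and 2 for Tmod3 in the authors' deposited table, beside a median of 8 among scores above 0. Tpm3 and Tpm4, the most altered tropomyosins by reads, had a score of 0, as did Lmod1, which had fewer than 20 reads in MHC403. Since reads are listed per gene, the start that a score refers to is not known.

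Other genes were described from lists of 60 genes, of which 53 were measured. The lists held troponins and actins, capping and nebulin-family genes, 20 actin turnover genes and 17 regulators of muscle and cytoskeletal genes. All are called partner genes here, though only part of them encode proteins of the thin filament. With library totals 19 of the partner genes were higher by 2-fold or more and 2 lower. That is 35.8% and 3.77% of those measured, beside 26.1% and 2.43% of all measured entries. The median log2 ratio was 0.67 beside 0.57 for all measured entries, and median-of-ratios scaling left 8 higher and 3 lower, beside 10.9% and 7.59% of all entries.

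Troponins, the calcium switch that acts on tropomyosin, had 4 measured genes of 8. None of these was higher by 2-fold or more and 1 was lower, beside 26.1% and 2.43% of all measured entries. Slow skeletal troponin T, Tnnt1, had 19 reads in MHC403 and 61 in WT, 3.20-fold lower (1.89 to 5.68). Cardiac troponin I, Tnni3, had 14349 and 24724 reads, 1.72-fold lower (1.68 to 1.75), while cardiac troponin C, Tnnc1, was 1.25-fold (1.22 to 1.27) and cardiac troponin T, Tnnt2, 1.05-fold (1.04 to 1.06) higher with library totals, both with log2 values below 0 with median-of-ratios scaling. The list median was -0.35, which was 0.07 with a minimum of 20 or of 200 reads.

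Actins, the filament itself, had 5 measured genes of 6, around a median of 1.72. Of these, 4 (80%) were higher by 2-fold or more and none lower, beside 26.1% and 2.43% of all measured entries. The actin with the most reads, cardiac Actc1, was the one within 2-fold. It had 30038 reads in MHC403 and 16307 in WT, 1.85-fold higher (1.81 to 1.88). Skeletal alpha-actin, Acta1, had 3676 reads in MHC403 and 386 in WT, 9.54-fold higher (8.59 to 10.6). The cytoplasmic actins Actg1 and Actb were 3.44-fold (3.18 to 3.73) and 3.30-fold (3.16 to 3.44) higher, and smooth muscle actin Acta2 2.94-fold (2.54 to 3.43).

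Barbed-end capping and nebulin-family genes act at the opposite filament end from tropomodulin or along its length. In this list 3 of 8 measured genes (37.5%) passed 2-fold upward and none downward, around a median of 0.80. The list also counted Myoz2, which is of neither kind and lay within 2-fold at a ratio of 0.98. Of all measured entries 26.1% were higher and 2.43% lower by 2-fold or more. The capping protein Capg had 275 reads in MHC403 and 35 in WT, 7.88-fold higher (5.53 to 11.5). Capza1, a subunit of the barbed-end cap, was 2.37-fold (1.67 to 3.40) and Lasp1, a LIM and SH3 protein, 2.09-fold (1.69 to 2.58) higher, and Nrap, a nebulin relative of the intercalated disc, lay within 2-fold at 1.76 (1.67 to 1.84).

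Of 20 actin turnover and assembly genes, all measured, 9 (45%) passed 2-fold upward and none downward, beside 26.1% and 2.43% of all measured entries, around a median of 0.92. Cofilin, Cfl1, which severs actin filaments, was 3.89-fold (3.55 to 4.26) higher, and its cofactor Wdr1 3.31-fold (3 to 3.66). The monomer-binding proteins Tmsb10 and Pfn1 were 3.97-fold (3.43 to 4.60) and 2.75-fold (2.57 to 2.94) higher.

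Regulators of muscle and cytoskeletal genes, made up of SRF with its cofactors, MEF2 and TEAD factors and muscle splicing factors, had 3 of 16 measured genes past 2-fold upward and 1 downward, around a median of 0.48. The higher share, 18.8%, and the median were both below those of all measured entries, 26.1% and 0.57. Srf, which drives many actin and tropomyosin genes, had 1029 reads in MHC403 and 407 in WT, 2.53-fold higher (2.26 to 2.85). Ptbp1, a splicing repressor long studied on tropomyosin exons, was 2.56-fold (2.15 to 3.06) higher, and the SRF cofactor Mkl1 2.03-fold (1.34 to 3.14). The muscle and neuronal splicing factor Rbfox1 had 24 reads in MHC403 and 168 in WT, 6.98-fold lower (4.54 to 11.2), and its windows overlap the entry Fox1, so these reads cannot be given to 1 entry. Of the partner genes named here Lasp1, Capza1, Pfn1, Srf, Ptbp1 and Mkl1 were under 2-fold with median-of-ratios scaling, and Tnni3 was then lower by more than 2-fold, at a log2 ratio of -1.33.

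**Figure D5:**
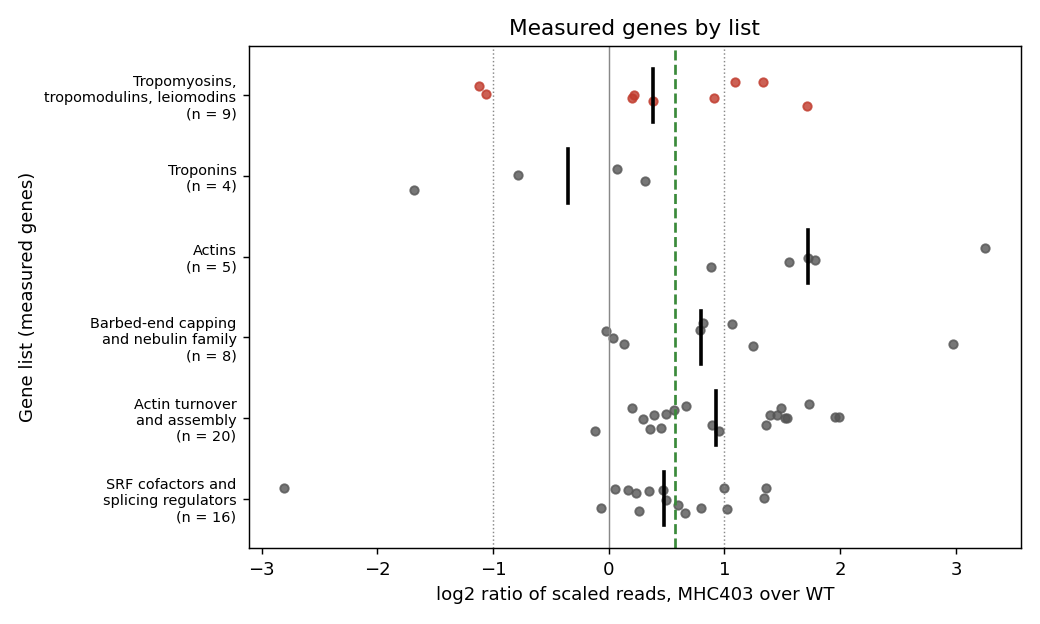
Log2 ratio of MHC403 over WT with library totals for each measured gene, by list, with black bars at list medians, dotted lines at 2-fold and the dashed line at the median of all measured entries. The 4 troponins have a median of -0.35 and the 5 actins one of 1.72, and the 9 members spread between -1.12 and 1.71.

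Markers of other cell types differed between the libraries as well, and in bulk tissue fewer cells of a type and less RNA per cell cannot be told apart. Beside the higher Tpm2, Tpm3 and Tpm4, 4 of 7 measured smooth muscle markers passed 2-fold upward and none downward, and the 8 markers summed to 649 RPM in MHC403 and 328 in WT. Synpo2 alone had 1135 of the 3550 summed reads in MHC403 and 385 of the 1800 in WT. None of these 8 was at 0 reads in either library, and the smooth muscle myosin Myh11 had 166 reads in MHC403 and 161 in WT. The fibroblast list had 5 of 8 genes past 2-fold upward, summing to 2547 and 455 RPM, and the macrophage list 7 of 7, at 618 and 194 RPM, again with no marker at 0. The fibroblast sum rested on Col1a1, Col3a1 and Postn, and without them, a choice made after the values were seen, the other 5 markers summed to 699 and 379 RPM, 1.84-fold. These counts are with library totals and stand beside the 26.1% of all measured entries that were higher by 2-fold or more. With median-of-ratios scaling, which lowered every log2 ratio by 0.55, Tagln, Cald1, Pdgfra, Emr1 and Csf1r were under 2-fold. Acta2 was then at a log2 ratio of 1.01, and 10.9% of all measured entries were higher by 2-fold or more. Endothelial markers lay within 2-fold in 7 of 7 cases with library totals, at 621 and 493 RPM. Kdr was lower by more than 2-fold with median-of-ratios scaling. The part of these cell types in the tropomyosin ratios was not tested.

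Lmod1 was lower in MHC403, and the markers of smooth muscle, in which it is known, were uneven. With library totals Acta2 and Tagln were 2.94-fold (2.54 to 3.43) and 2.15-fold (1.77 to 2.62) higher, and Cald1 and Synpo2 also passed 2-fold upward. Myh11, with 166 reads in MHC403 and 161 in WT, lay within 2-fold, as did Smtn and Mylk. Cnn1 had under 50 reads. Whether Lmod1 departs from smooth muscle as a whole was not tested. Beside the lower Tmod4 and Lmod3, 4 of 4 measured fast skeletal muscle markers were lower by 2-fold or more, where 2.43% of all measured entries were. The list of 10 summed to 66.4 RPM in MHC403 and 172 in WT. The 4 lower markers were Myh1, Myh2, Myh4 and Atp2a1, with 80 and 288 reads, 72 and 181, 132 and 393, and 23 and 59 in MHC403 and WT. The other 6 fast-fibre markers had under 50 reads. Tnni2 had 4 reads in each library and Mylpf 3 in each, while Pvalb had 2 in MHC403 and 0 in WT, Tnnc2 5 and 0, and Actn3 18 and 15. Fast troponin T, Tnnt3, went the other way from the 4 lower genes, with 24 reads in MHC403 and 1 in WT, a ratio of 24.1 (3.92 to 989). Slow skeletal markers had 2 of 3 measured genes lower and 1 higher by 2-fold or more, beside 2.43% and 26.1% of all measured entries. They summed to 85.0 RPM in MHC403 and 157 in WT. Most of these reads were of Myh7b, with 168 in MHC403 and 666 in WT, and of Myot, the higher one, with 277 and 127. Sharing of reads between skeletal and cardiac myosin genes was not examined here, and the part of skeletal muscle cells was not tested.

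With library totals 1 of 8 cardiac myocyte markers passed 2-fold upward and 1 downward, beside 26.1% and 2.43% of all measured entries. The 8 summed to 36183 RPM in MHC403 and 48887 in WT, with a median log2 ratio of 0.05 and none at 0. With library totals the lower sum rested on Myh6, by a split made after the values were seen. The other 7 markers summed to 26094 RPM in MHC403 and 24629 in WT, 1.06-fold, beside 1.48-fold at the median of all measured entries. With median-of-ratios scaling, which lowered every log2 ratio by 0.55, the sum of these 7 was lower in MHC403 too. Within those 7, moves in opposite directions were added up. Pln and Tnni3 were 1.95-fold and 1.72-fold lower, and Nkx2-5 and Actc1 2.19-fold and 1.85-fold higher. Tnnc1, Tnnt2 and Ryr2 had ratios of 1.25, 1.05 and 1.01. With median-of-ratios scaling Pln and Tnni3 were lower by more than 2-fold, and Nkx2-5 was under 2-fold. Of 7 erythroid markers, which bear on Tmod1 as a component of the red cell membrane skeleton, 6 were listed and 2 measured, with sums of 241 RPM in MHC403 and 111 in WT. Of the 6, 3 were at 0 in MHC403 and 4 in WT. Hbb-b1 alone had 1221 of the 1317 summed erythroid reads in MHC403 and 560 of the 606 in WT. It was 2.19-fold higher with library totals, and Alas2, the other measured marker, lay within 2-fold.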

How the data were processed

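The data were 1 table of 5′RNA-seq from mouse heart with 1 library per genotype, and samples were grouped by the genotype label. Per the file headers, the values include deposited read counts by gene. The deposited normalized reads were RPM over the table total, and recomputed values differed by at most 4.94e-06. Per the file headers, the deposited fold is a ratio of normalized reads and the deposited p-value has no stated test; neither was used. The deposited start-site score is the authors' own. The submitters' processing notes name TopHat 1.0.14 and mm9. The counting program, its strand use and how it treated multiply mapped reads were not given in the sources used here.

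Library totals were 5468677 and 5481123 reads, and no other per-sample column was present. With 1 library per group no test was made. Ratios were scaled to library totals with exact 95% intervals conditional on a gene's reads; for 50 reads against 50 it spans 0.662 to 1.51. A library at 0 reads was set to 3 counts for medians. Scripts were tested on simulated data (Python 3.11.15, scipy 1.17.1). Alternatives were median-of-ratios and TMM scaling (edgeR 4.0.16), totals without the mitochondrial chromosome, and minimums of 20 and 200 reads. All members are named, with up to 4 genes of each partner list by the nearer bound of the interval, those past 2-fold first. Actc1 is named besides, as the actin with the most reads. Markers are named as examples chosen after their values were seen. Members and lists were chosen with earlier results of these data known. Marker lists covered smooth muscle, fibroblasts, macrophages, endothelium, erythroid cells, fast and slow skeletal muscle, and cardiac and atrial myocytes. Shared words were counted in the first 200 bases of protein-coding GENCODE M21 transcripts, with a word length set without the read length. Promoters came from RefSeq (GRCm38.p6).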

Additional observations from a re-analysis of the deposited data

How the results depend on the processing

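Members higher by 2-fold or more numbered 3 for library totals and 50 reads, 1 under median-of-ratios scaling and 1 under TMM scaling, where Tpm2 and Tpm4 were under 2-fold. The count of lower members, 2, was 1 with a minimum of 200 reads, since Tmod4 was then not measured, and 3 with a minimum of 20 reads, where Lmod1 entered. The 19 higher partner genes numbered 8 under median-of-ratios and 8 under TMM scaling, and the 2 lower ones 0 with a minimum of 200 reads. Over all measured entries 2483 were higher and 231 lower for library totals, 1033 and 722 under median-of-ratios scaling, and 1528 and 400 without mitochondrial entries in the totals. No called member changed direction under these alternatives, whereas Tpm1, Tmod1 and Lmod2, which were not called, did under median-of-ratios and TMM scaling. Leaving out members with overlapping windows removed none, so the family shares were the same. No paired analysis was possible because each genotype had 1 library. Depth limits Lmod1, at 17 and 45 reads, and Tmod4, at 44 and 96, most. Pooling, amplification and variation between animals are not in any interval.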
